A study of Homo sapiens with 4 samples.

Results

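HSC3 is a cell line from a squamous cell carcinoma of the tongue, and the array described here set HSC3 cells transfected with miR-489 against HSC3 cells transfected with a control miRNA. It is 1 of 4 arrays in the series, chosen by its cell line and miRNA, and it held 41000 non-control probes under 30982 gene names. The RNA of the miR-489 transfectant was labelled with Cy5 and that of the control transfectant with Cy3, so a log2 ratio below 0 means less signal after miR-489. The other 3 arrays held miR-504 against control in HSC3 cells, and miR-489 or miR-504 against control in FaDu cells, a hypopharyngeal squamous carcinoma line. All cells were collected 72 h after transfection. Each condition had 1 array, with no replicate and no dye swap, and all 4 lay on 1 slide. A ratio on 1 array has no test. The groups are transfected pools of an established line, and the sources used here did not say whether the miR-489 and miR-504 arrays of HSC3 cells shared their control RNA.

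A miRNA guides Argonaute proteins to messenger RNAs, mostly through pairing between its seed and a site in the 3′ untranslated region, and the bound messenger is translated less and often degraded. Introducing a miRNA therefore commonly lowers the messengers that carry its site, while many other messengers move indirectly. The question of the experiment was which messengers fall when miR-489, a miRNA that is low in these tumours, is put back into carcinoma cells. PTPN11 was the gene of interest. It encodes SHP2, a tyrosine phosphatase with SH2 domains that passes signals from growth factor receptors to RAS and ERK.

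The mature sequences of both transfected miRNAs are shown because their seeds differ, so that miR-504 in the same cells is the nearest comparison. Capitals mark the seed, bases 2 to 8 from the 5′ end. The labels did not name the arm, and the main arm in RefSeq is printed. The first lies at chr7:93483947-93483968 and the second at chrX:138667760-138667781, both on the minus strand of GRCh38.p14.
hsa-miR-489-3p: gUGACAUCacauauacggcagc
hsa-miR-504-5p: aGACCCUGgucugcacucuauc
The 7-base sites complementary to these seeds are GAUGUCA for miR-489 and CAGGGUC for miR-504.

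The control channel carried the markers of a squamous epithelial line. All 11 squamous markers found on the array were well above background in Cy3, with net signals of 296.5 to 67451.7 and a median of 10804. Keratin 5, a basal keratin, had a net signal of 33685.3. TP63, the master regulator of stratified epithelium, had 14212 and a log2 ratio of −0.94. Of the markers of other cell types, 1 of 6 fibroblast markers was well above background (COL1A1, at 43.8), 1 of 5 leukocyte markers (CD14, at 57.5) and 0 of 3 endothelial markers.

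More genes were lower than higher after miR-489. A fall of at least 2-fold was called for 1464 of the 17866 gene names with a usable Cy3 signal (well above background), or 8.19%, and a fall of at least 4-fold for 172, or 0.963%. A rise of at least 2-fold was called for 507 of the 18734 names with a usable Cy5 signal, or 2.71%, and 12 of these reached 4-fold. The median of all measured genes was −0.03 and the 5th and 95th percentiles were −1.11 and 0.86. On the HSC3 miR-504 array 5.12% of genes were lower and 1.97% higher. On the FaDu arrays the shares were 8.84% and 2.85% after miR-489, and 6.0% and 2.35% after miR-504. Lower genes made up 74.3% of the changed genes. That share was 52.0% with the normexp background correction, 46.7% with no background subtraction, 88.6% with scaling to the total signal and 58.7% in the deposited log ratios. In 250 of the 1464 lower genes Cy5 was not well above background, so that their ratio is only a bound.

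The lower genes were dimmer than the higher genes. Among genes brighter than the median gene, 395 were lower and 291 higher. The lower genes had a median net Cy3 signal of 76, the higher genes 477 and all measured genes 335. Spots well above background in both channels were also split into 4 equal bins by the mean log2 signal of both channels. The dimmest bin had a median of −0.41 and the brightest 0.17, against 0.00 and −0.03 after loess normalisation. The 153 spots with no target kept a net signal of 15.5 in Cy3 and 3 in Cy5. With the median signal of those spots subtracted in place of the local background, the dimmest bin had −0.12 and the brightest 0.03. The counts were then 1192 lower and 608 higher, under a setting chosen after seeing the data. The part of this channel difference in the counts was not tested. Repeated spots of one probe had an SD of 0.102, which is error within the array only, and the scanner software gave a median error of 0.21 for the log2 ratio of a gene. The range between the highest and lowest probe of 1 gene had a median of 0.44 over 4221 genes with more than 1 probe. In 644 of these it was at least 2-fold. A range is a different measure from the SD and the scanner error.

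**Figure D1:**
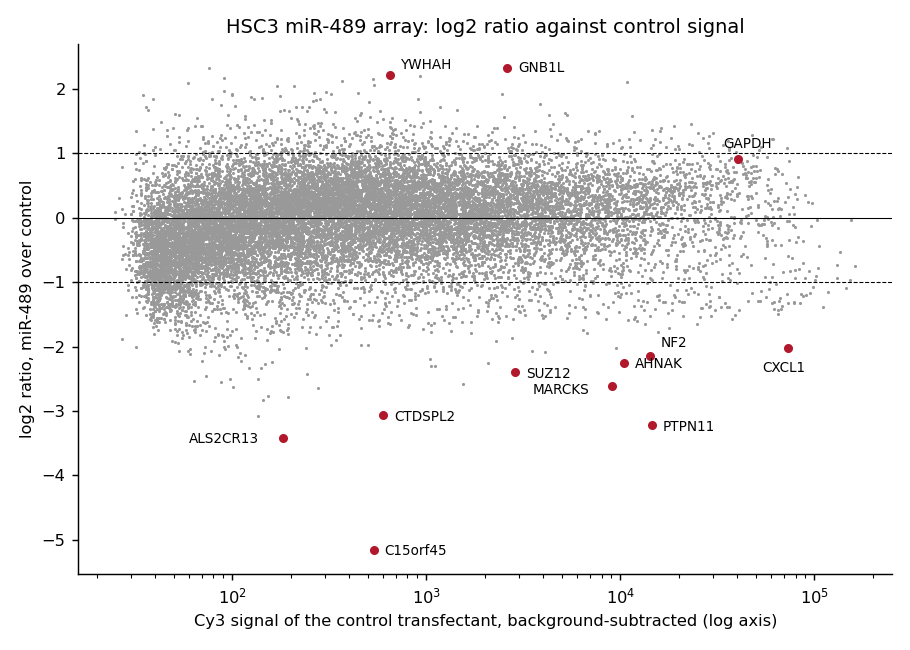
Log2 ratio of miR-489 over control against the Cy3 signal (log axis) for the gene names measured on the HSC3 array, with the named genes marked. PTPN11 lies at −3.22 among bright genes. With spots binned by the mean log2 signal of both channels, which is not the plotted axis, the dimmest of 4 bins has a median of −0.41.

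The largest falls included PTPN11, CTDSPL2 and MARCKS. PTPN11 stood at 10.7% of its control level, a 9.33-fold fall. Its log2 ratio was −3.22 (scanner software error 0.37, 1 array) from a net control signal of 14595, and it was −1.04 on the HSC3 miR-504 array, −3.25 on the FaDu miR-489 array and −1.29 on the FaDu miR-504 array. Both miR-489 arrays therefore lay below both miR-504 arrays. The other 3 PTPN11 probes had less extreme ratios in HSC3, at −1.66, −1.22 and, for a probe with 10 spots, −1.38 (SD 0.03 over spots). That last probe had 0.29 and 0.35 on the miR-504 arrays (limma adjusted p = 0.0343 for miR-489 minus miR-504). The first pair, with control signals of 97 and 62, had −1.36 and −1.41 on the HSC3 miR-504 array and their difference did not pass the test (limma adjusted p = 0.253 and 0.583).

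CTDSPL2, a phosphatase of the family that acts on the tail of RNA polymerase II, had −3.07 (error 0.38) in HSC3 after miR-489, −1.36 after miR-504, and −3.53 and −1.10 in FaDu. A different CTDSPL2 probe had −2.29 and −0.62 in HSC3. FAM117B, named ALS2CR13 on the array, had −3.42 (error 0.42) after miR-489 and −0.85 after miR-504, and in FaDu its Cy5 signal was not well above background after miR-489. MARCKS, a protein kinase C substrate that binds actin at the membrane, had −2.62, −1.72, −2.14 and −1.75 in the same order of arrays. It fell 6.14-fold on the array, and its values after miR-504 were also low. A2ML1, a protease inhibitor of stratified epithelium, had −2.77 after miR-489 and −0.67 after miR-504 in HSC3, and −2.64 and −2.51 in FaDu, so its miR-504 value was low in FaDu alone. OBSL1, a cytoskeletal adaptor, had −2.64, −0.53, −1.59 and −0.63, and RP11-11C5.2 had −2.58, −0.44, −2.02 and −0.35. By these probes the miR-489 arrays were the lowest. A second RP11-11C5.2 probe had −0.84 and −0.71 after miR-489 in HSC3 and FaDu, and −0.76 and −0.49 after miR-504 (limma adjusted p = 0.637 for the difference).

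The remaining large falls were measured on fewer arrays. C15orf45 had the lowest value, −5.16 (error 0.55), from 1 spot with a control signal of 536.5. It had −0.07 in FaDu after miR-489, and on both miR-504 arrays it was not well above background in at least 1 channel. THEG, a sperm protein gene, had −3.09, MYCL1, the MYC family gene MYCL, had −2.65, and ACADL, an enzyme of fatty acid oxidation, had −2.51. None of these had both channels well above background on another array. On the HSC3 miR-504 array the Cy3 control signal of THEG, MYCL1, ACADL and C15orf45 was not well above background. The control level behind these falls was thus not seen on the other array of the same line. RBMS3, which encodes an RNA-binding protein, had −2.54 after miR-489 and −1.02 after miR-504 in HSC3, but a second probe had −0.51, and 1 more was not well above background. With normexp and loess together the first probe had −0.94. The probes named only AW294929 and A_32_P232437 had −2.82 and −2.78, and their Cy3 signals were also not well above background on the HSC3 miR-504 array.

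The largest rises were smaller than the largest falls, and the same genes were high after miR-504. GNB1L, a WD-repeat protein related to G protein beta subunits, was 5.01-fold higher, with log2 ratios of 2.33 (error 0.29) in HSC3 and 1.82 in FaDu after miR-489, and 0.93 and 0.82 after miR-504. YWHAH, which encodes 14-3-3 eta, had 2.22 and 2.53 after miR-489, and 1.80 and 1.81 after miR-504. The other genes were KIF17, a kinesin motor (2.17), Kua-UEV, a read-through transcript (2.15), POLR3E, a subunit of RNA polymerase III (2.12), the cofilin pseudogene CFLP1 (2.11) and FCHO1, an endocytosis protein (2.09). PMM2, an enzyme of protein glycosylation, had 2.07. RDX, the membrane-actin linker radixin, had 2.05, IRF2BP1, a corepressor, 1.97, and ZNF580, a zinc finger protein, 1.96. On the HSC3 miR-504 array the rises named by symbol ran from 0.93 to 2.03. A second POLR3E probe had −0.14. CFLP1 shares sequence with the cofilin gene, so its signal may come from either. The transcripts BQ017638 (2.32) and LOC284361 (2.20) also ranked among the largest rises.

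**Figure D2:**
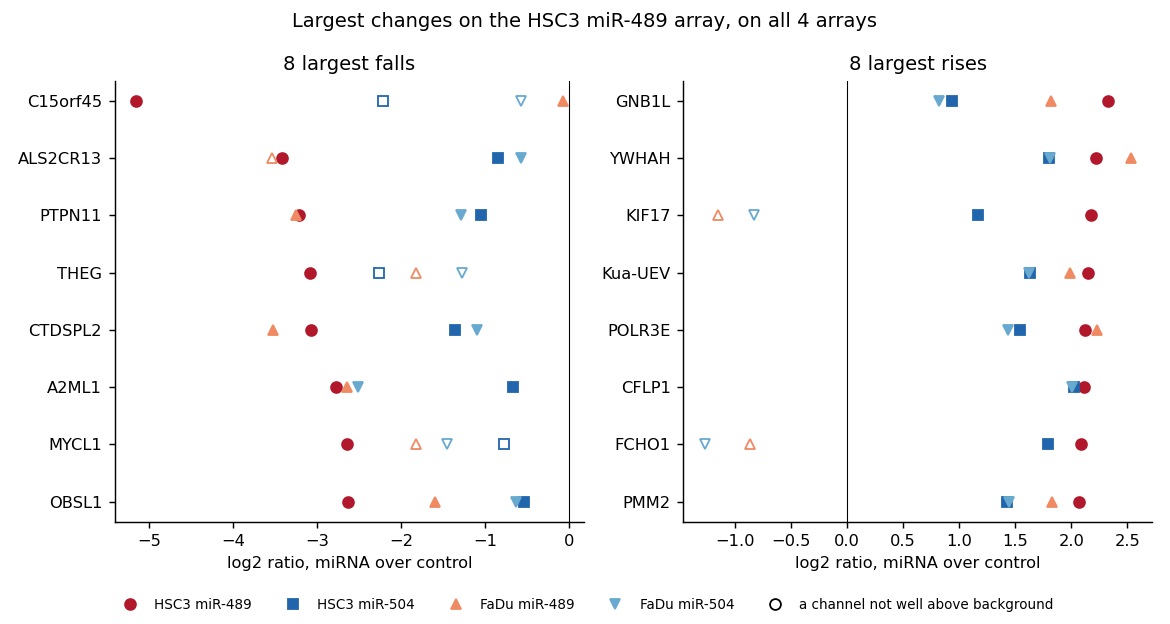
Log2 ratio on each of the 4 arrays for the 8 largest falls and 8 largest rises with both channels well above background on the HSC3 miR-489 array, 1 point per array and open symbols where a channel was not well above background. The rises stay high after miR-504 in HSC3 (0.93 to 2.03), while PTPN11, ALS2CR13 and CTDSPL2 are lower after miR-489 than after miR-504.

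Few other genes of the PTPN11 pathway passed the 2-fold threshold. The shares of all genes were 8.19% lower and 2.71% higher, and no difference of these lists from them was tested. Of the 19 measured genes that bind SHP2 or couple receptors to RAS, PTPN11 alone was at least 2-fold lower and NF1, the RAS GTPase-activating protein, alone was at least 2-fold higher (1.16, and 1.06 after miR-504), with a list median of 0.24. GRB10, an adaptor that dampens insulin receptor signalling, had −0.90, and a second GRB10 probe −1.85. Of 11 measured RAF, MEK and ERK pathway kinases, 1 was lower, RPS6KA3, the ERK-activated kinase RSK2 (−1.27), and the median was −0.08. Of 18 measured ERK feedback genes, 1 was lower, the ERK phosphatase DUSP7 (−1.28), and 13 lay above 0, with a median of 0.21. Of 16 measured genes of the EGFR family, its ligands and feedback, 14 lay below 0, the median was −0.28, and 1 was at least 2-fold lower. That gene was ERRFI1, the EGFR inhibitor MIG6, with −2.09 in HSC3 and −2.12 in FaDu after miR-489, and −0.65 and −0.89 after miR-504. No gene of the EGFR list was at least 2-fold higher. The list median was 0.02 on the HSC3 miR-504 array, −0.20 on the FaDu miR-489 array and −0.29 on the FaDu miR-504 array.

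The study listed 53 genes as lower after miR-489 in FaDu cells, and HSC3 is the line in which that choice was not made. In HSC3, 43 of the 53 were measured, 30 were at least 2-fold lower against 8.19% of all genes, and 14 were at least 4-fold lower against 0.963%. None was 2-fold higher and 39 lay below 0. Their median was −1.53, with quartiles at −2.12 and −0.93 and a range of −3.22 to 0.12. On the HSC3 miR-504 array 41 were measured, 7 were lower and the median was −0.60. On the FaDu miR-489 array, where the list was chosen, 43 of 51 were lower and the median was −2.15, which is a description. On the FaDu miR-504 array 8 of 42 were lower and the median was −0.38. The 10 not measured in HSC3 were GPR110, VGF, CD244, LIN28B, FAM26E, TFAP4, MYO3B, ZCCHC5, BLID and MAGEH1. A brighter GPR110 probe, for an adhesion receptor, had −1.58 in HSC3.

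The listed genes with a miR-489 site named by the study were compared with the others. Of 28 measured with a site, 21 were at least 2-fold lower, 12 at least 4-fold, with a median of −1.76. Of 15 measured without one, 9 were at least 2-fold lower, 2 at least 4-fold, with a median of −1.05. The difference was not tested. The genes with a site were also brighter, with a median Cy3 signal, on the log2 scale, of 10.1 in contrast to 8.39.

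Several listed genes had low and similar ratios in both lines after miR-489. SUZ12, a core subunit of Polycomb repressive complex 2, had −2.40 in HSC3 and −2.53 in FaDu after miR-489, and −0.55 and −0.43 after miR-504. The other SUZ12 probes had −1.32 and −0.53 in HSC3 after miR-489. AP1M2, the epithelial medium chain of the AP-1 clathrin adaptor, had −2.31 and −2.41 after miR-489, and −0.26 and −0.22 after miR-504. CYP1B1, a cytochrome P450 induced by the aryl hydrocarbon receptor, had −2.43 and −2.29 after miR-489, and −0.95 and −0.07 after miR-504. ATP1B3, a sodium pump beta subunit, had −1.72 and −1.84 after miR-489, and −0.35 and −0.39 after miR-504. In these 4 genes both lines were lower after miR-489 than after miR-504. CDK6, a kinase that drives cells out of G1, was low after both miRNAs. It had −1.79 and −1.98 after miR-489, and −1.44 and −2.32 after miR-504.

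Each listed gene was read from the brightest probe matched to its accession or, failing that, its symbol. By these probes, 13 of the 43 measured listed genes were less than 2-fold lower in HSC3, and 4 of these lay above 0. EGR1, an immediate early transcription factor, had −0.95 in HSC3 and −2.38 in FaDu. RTP4, an interferon-induced chaperone, had −0.84 and −1.90. HTR2B, a serotonin receptor, had −0.33 and −2.56. The matched probes of NUPL1, a nuclear pore gene, and KCTD4 had 0.12 and 0.10 in HSC3. That NUPL1 probe also had 0.06 in FaDu after miR-489. A brighter NUPL1 probe had −1.67 in HSC3 and −1.90 in FaDu, and another −0.17 and 0.06. For SLC25A40 the matched probe had −0.45 and −0.34, and others −1.23 and −2.11, and −0.05 and 0.28. The matched MYLK probe had −0.03 and −0.04, and another −0.84 and −2.42. The counts of listed genes thus depend on the probe. The NF2 gene, which encodes the tumour suppressor merlin, gave opposite readings by probe. The probe with the listed accession had 0.02 in HSC3 and the others 0.14 and 0.20, while the brightest NF2 probe, with a control signal of 14157, had −2.15 in HSC3 and −2.41 in FaDu after miR-489, and −0.07 and −0.64 after miR-504.

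**Figure D3:**
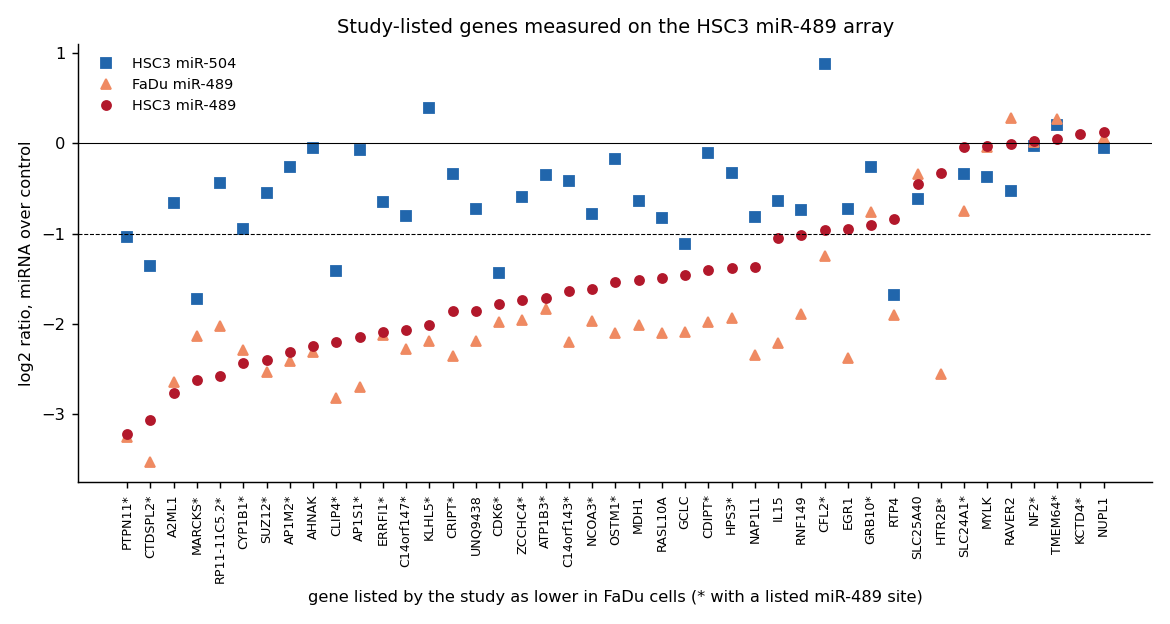
Log2 ratio on the HSC3 miR-489 array for the 43 measured genes that the study listed as lower in FaDu, beside their values on the HSC3 miR-504 and FaDu miR-489 arrays where measured (dashed line, 2-fold lower). In HSC3 after miR-489, 30 of the 43 are at least 2-fold lower and the median is −1.53, against −0.60 on the HSC3 miR-504 array.

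The comparison with miR-504 in the same line separates genes low after miR-489 from genes low after either miRNA. Of 16802 genes with both channels well above background on both HSC3 arrays, 278 (1.65%) lay at least 2-fold lower on the miR-489 array and 102 (0.607%) at least 2-fold higher. CTSZ, the lysosomal protease cathepsin Z, had the largest difference, with −1.70 after miR-489 and 1.46 after miR-504 in HSC3. In FaDu it had −0.38 and 1.28. KLHL5, a kelch-family protein, had −2.02 and 0.39 in HSC3, and −2.19 and 0.45 in FaDu. AHNAK, a giant scaffold protein under the membrane, had −2.25 and −0.05 in HSC3, and −2.31 and −0.07 in FaDu. Both probes were low after miR-489 alone in both lines. The other AHNAK probes disagreed. In HSC3 after miR-489, 3 had −2.33, −1.66 and −1.86, the last with Cy5 not well above background, but 1 had 1.57, with 1.41 in FaDu and −0.15 and 0.33 after miR-504 in HSC3 and FaDu. The remaining KLHL5 probes had −1.40 and −1.12 in HSC3 after miR-489. MRM1, a mitochondrial RNA methyltransferase, had −1.33 and 0.81 in HSC3, and −0.31 and 0.83 in FaDu. PTPN11, ALS2CR13, RP11-11C5.2 and A2ML1 were the other genes among the 8 largest differences, at −2.18, −2.57, −2.14 and −2.11.

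The 8 largest differences upward came mostly from genes low after miR-504. CMPK, a pyrimidine nucleotide kinase, had −0.12 after miR-489 and −2.01 after miR-504. PRSS23, a secreted serine protease, had 0.14 and −1.57, USP46, a deubiquitinase, −0.15 and −1.84, CUTC, a copper homeostasis protein, 0.36 and −1.24, COPZ1, a coatomer subunit, 0.20 and −1.33, and ZMYM6, a zinc finger protein, −0.80 and −2.37. Their values after miR-489 in HSC3 therefore ran from −0.80 to 0.36. The exceptions were C4orf13, now SLC10A7, with 0.95 and −0.96, and ALDH9A1, an aldehyde dehydrogenase, with 1.27 and −0.39.

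The 4 arrays allowed 1 test, of miR-489 minus miR-504 with the lines as replicates. Of 20914 probes tested with limma, 164 (0.784%) were lower and 66 (0.316%) higher after miR-489 at a Benjamini-Hochberg adjusted p under 0.05. With the cell line as a block the counts were 382 and 196. Without any 1 of the 4 arrays, each in turn, there were 0 calls, with 2065 to 3704 probes at an unadjusted p under 0.05. The smallest p-values belonged to KLHL5, AHNAK, ALS2CR13, AP1M2 and SUZ12. KLHL5 differed by −2.52 and AHNAK by −2.22, each with a limma adjusted p of 0.0262. AP1M2 differed by −2.12 (limma adjusted p = 0.0262) and SUZ12 by −1.97 (limma adjusted p = 0.0304). The estimate for ALS2CR13, −2.77, rests in part on a FaDu signal not well above background. PTPN11 differed by −2.07 (limma adjusted p = 0.0304) and CTDSPL2 by −2.07 (limma adjusted p = 0.0343). GNB1L, the largest rise, passed with the line as a block (limma adjusted p = 0.0277) and not without (0.068). MARCKS differed by −0.64 (limma adjusted p = 0.175) and CDK6 by 0.00 (limma adjusted p = 0.997).

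Of the 53 listed genes 41 could be tested, 14 were lower by limma (21 with the line as a block) and 0 higher, and 13 of the 14 were among the 26 tested with a named site. The FaDu array that chose the list is part of that test, so the count is not independent evidence. In HSC3 alone, 21 of 41 listed genes had a ratio at least 2-fold below that of the miR-504 array, 7 lay above it, and the median difference was −1.06. CFL2, the muscle cofilin that severs actin filaments, had opposite signs, with −0.97 and −1.25 after miR-489 in HSC3 and FaDu and 0.88 and 0.88 after miR-504 (limma adjusted p = 0.0304). The brightest NF2 probe differed by −1.93 (limma adjusted p = 0.0395).

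HSC3 and FaDu responses to miR-489 were set side by side, as no RNA is shared between the lines. Of 16313 genes measured in the control channel of both, 1100 were at least 2-fold lower in HSC3 and 1170 in FaDu. The 680 lower in both were 61.8% of the HSC3 genes and 58.1% of the FaDu genes. Of 17182 genes measured in Cy5 on both, 498 were higher in HSC3 and 520 in FaDu, and the 330 shared were 66.3% and 63.5% of these. None was at least 2-fold lower in 1 line and 2-fold higher in the other. Of all genes called lower in HSC3 after miR-489, 1027 had a value on the HSC3 miR-504 array. Their median there was −0.87, and in 198 the miR-489 ratio lay at least 2-fold below the miR-504 ratio. Of those called higher, 497 had a value there, with a median of 0.9985, and 16 lay at least 2-fold above it. The part of changes common to both miRNAs in the overlap between lines was not tested. The arrays also share probes, dye orientation and slide, and the part of these in the overlap was not tested. Gene by gene the lines differed with an SD of 0.31, and of 16119 genes 82 (0.509%) were at least 2-fold lower in HSC3 and 78 (0.484%) at least 2-fold higher.

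The genes lower in HSC3 than in FaDu included secreted signals. CXCL1, a neutrophil-attracting chemokine, had −2.02 in HSC3 after miR-489, a 4.07-fold fall from a control signal of 72911.8, −0.49 after miR-504, and 0.08 and −0.07 in FaDu. IL8, the chemokine CXCL8, had −1.53 after miR-489 and −0.70 after miR-504 in HSC3, and 0.07 and −0.93 in FaDu. PDGFB, a platelet-derived growth factor chain, had −0.85 and 0.00 in HSC3, and 1.09 and −0.72 in FaDu. For CXCL1 the HSC3 miR-489 array alone was low. ADAMTS13, the protease that trims von Willebrand factor, had −2.34 and −1.69 in HSC3, and −0.63 and −0.36 in FaDu, and thus was low in HSC3 after either miRNA. KIAA0258, now RGP1, had −1.72 against 0.24 in FaDu, HAB1 −0.69 against 0.91, and TWIST2, an EMT transcription factor, −1.31 against 0.50 from a control signal of only 33 in HSC3, which became −0.09 with normexp and loess. C15orf45 had the largest difference.

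The genes higher in HSC3 than in FaDu were mostly near 0 in HSC3 and low in FaDu. After miR-489, HCLS1, a cortactin-like protein of blood cells, had 0.23 in HSC3 and −1.67 in FaDu, GRAMD1C, a sterol transfer protein, 0.12 and −1.73, and VTN, the adhesion protein vitronectin, −0.25 and −1.79. C17orf54, a non-coding transcript, had −0.38 and −1.96. HTR2B belonged here too. Interferon-induced genes appeared in this group. IFIT2 had −0.09 in HSC3 and −1.74 in FaDu, and TRIM22 0.90 and −0.70. HOM-TES-103, now IFFO1, had 0.89 and −0.82. Over the 31 measured interferon-stimulated genes the HSC3 median was 0.06 with 0 lower and 3 higher, ISGF3G (IRF9), OAS3 and IFI6 at 1.27, 1.17 and 1.02. The FaDu median of this list was −0.35, with 6 of 31 lower, against 8.84% of all genes there, and 2 higher. After miR-504 the order of the lines was the opposite, with medians of −0.25 in HSC3 and 0.24 in FaDu. These differences between lines have 1 array each and were not tested.

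**Figure D4:**
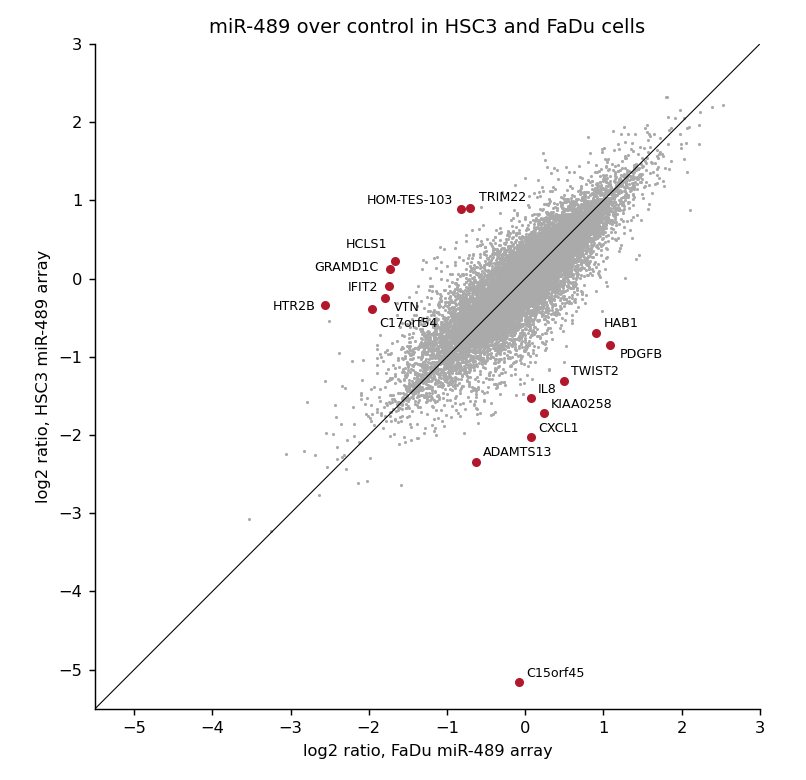
Log2 ratio after miR-489 in HSC3 (y axis) against FaDu (x axis), for genes with both channels well above background on both arrays, with the genes of largest difference named and a line of equal ratios. CXCL1 (−2.02 in HSC3 and 0.08 in FaDu) and IL8 (−1.53 and 0.07) lie below the line, and HTR2B (−0.33 and −2.56) above it.

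Inflammatory genes of HSC3 were described as a group. Of 30 measured cytokine, chemokine and NF-kB feedback genes, 7 were at least 2-fold lower, against 8.19% of all genes, and 0 higher, and the median was −0.18. Besides CXCL1 and IL8, these were CSF3, the granulocyte growth factor (−1.68 after miR-489 and 0.40 after miR-504), CCL20, a chemokine for dendritic and T cells (−1.61 and −0.94), IL1B, an inflammasome cytokine (−1.43 and −0.42), CXCL11 (−1.44) and IL15 (−1.05). CXCL2 and CXCL3, close relatives of CXCL1, had −0.96 and −0.93 after miR-489, and 0.93 and 0.73 after miR-504. In FaDu after miR-489 they had 0.04 and −0.20. On the HSC3 miR-504 array 0 of 26 measured genes of the list were lower and 1 was higher, and on the FaDu miR-489 array 3 of 23 were lower and 0 higher. Of 22 list members tested by limma over both lines, 0 were lower and 0 higher. With the line as a block 1 was lower and 0 higher.

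Polycomb genes included falls beyond the listed SUZ12. Of 23 measured Polycomb genes, 4 were lower, against 8.19% of all genes, and 0 higher, and the median was 0.14. SUZ12 was joined by RBBP4, the histone-binding partner of several chromatin complexes, with −1.80 in HSC3 and −1.67 in FaDu after miR-489, and −0.32 and −0.22 after miR-504 (limma adjusted p = 0.0314). JARID2, an accessory subunit of the complex, had −1.42 and −1.19 after miR-489, and −0.22 and −0.19 after miR-504 (limma adjusted p = 0.0395). CBX6, a subunit of Polycomb repressive complex 1, had −1.12 and −1.20, and −0.31 and −0.35 (limma adjusted p = 0.0492). EZH2, the methyltransferase, had −0.40 and EED 0.21. Of 12 AP-1 clathrin adaptor genes 2 were lower, both on the study's list, AP1M2 and the small chain AP1S1, whose brightest probe had −1.73 in HSC3 (limma adjusted p = 0.0343), and 0 were higher. Of 8 small phosphatases of the CTD type 1 was lower, CTDSPL2.

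Few cell cycle genes passed the 2-fold threshold, which 8.19% of all genes passed downward and 2.71% upward. Of 41 DNA replication genes 0 changed 2-fold, and the median was 0.13. Of 40 mitosis and spindle genes 0 were lower and 1 was higher, TTK, the spindle checkpoint kinase (1.24), with a median of 0.37 in HSC3 after miR-489 and 0.06 after miR-504. It was 0.16 after loess normalisation. ANLN, the cytokinesis scaffold anillin, had 0.60 after miR-489 and −0.65 after miR-504 (limma adjusted p = 0.0395). HCAP-G, a condensin subunit, had −0.81. Of 22 G1 cyclins and inhibitors 3 were lower, CDK6, cyclin E1 (CCNE1, −1.33) and the inhibitor p27 (CDKN1B, −1.07), and 1 was higher, CDK4 (1.21). For this list 1 of 22 was lower and 0 higher on the HSC3 miR-504 array. In FaDu 4 of 22 were lower and 2 higher after miR-489, and 4 of 21 lower and 0 higher after miR-504. Of 24 clustered histones 0 changed 2-fold. Of 26 p53 output genes 4 were lower, against 8.19% of all genes, namely BBC3 (−1.16), TP73 (−1.07), BAX (−1.03) and the death receptor TNFRSF10B, and FAS was higher (1.11). TNFRSF10B differed from its miR-504 values by −1.04 (limma adjusted p = 0.0395). BBC3 and BAX were also the 2 lower genes of the 15 measured in the BCL2 family, where BAD (1.10) and BCL2L1 (1.01) were higher. On the HSC3 miR-504 array BBC3, BAX and BAD had −1.06, −1.04 and 1.14, close to their values after miR-489.

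Metabolic lists held a shift in sterol synthesis. Of 24 cholesterol synthesis and LDL uptake genes, 19 lay above 0 and the median was 0.52, with 4 at least 2-fold higher, against 2.71% of all genes, and 1 lower, against 8.19%. After loess the median was 0.37. The higher genes were SC4MOL, the sterol methyl oxidase MSMO1 (1.66), DHCR7, the last step to cholesterol (1.24), FDFT1, squalene synthase (1.18), and IDI1 (1.02). After miR-504 in HSC3 these 4 had 0.88, 0.99, 0.70 and 0.25. The lower gene was SREBF1, a transcription factor of lipid synthesis (−1.14, and −0.30 after miR-504). The list medians on the other arrays were 0.26 for HSC3 after miR-504, and 0.42 and 0.40 for FaDu after miR-489 and miR-504. Of 20 glycolysis genes 1 was lower, hexokinase HK2 (−1.09 in HSC3 and −0.98 in FaDu after miR-489, −0.03 and −0.08 after miR-504, limma adjusted p = 0.0395), and 1 was higher, TPI1 (1.18). Of 18 malate-aspartate shuttle and TCA cycle genes, MDH1, the cytosolic malate dehydrogenase, was lower (−1.52). Of 68 oxidative phosphorylation genes 0 were lower and 2 higher, with a median of 0.03.

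Stress lists were read against the same shares of all genes, 8.19% lower and 2.71% higher. Of 26 unfolded protein and integrated stress response genes 2 were lower, SLC7A11, the cystine transporter (−1.14 in HSC3 and −1.29 in FaDu after miR-489, −0.01 and 0.02 after miR-504, limma adjusted p = 0.0343), and HERPUD1 (−1.13). ATF3, a stress transcription factor, had −0.76 after miR-489 and 0.32 after miR-504 (limma adjusted p = 0.0499). GCLC, which limits glutathione synthesis, had −1.46 after miR-489 and −1.12 after miR-504 in HSC3, and was with SLC7A11 the pair lower among 26 NRF2 genes. A second GCLC probe had 0.71 after miR-489. Of 17 heat shock chaperones 1 was higher, HSPB1 (1.60 after miR-489 and 1.92 after miR-504). Of 31 proteasome subunits 0 were lower and 1 higher. Of 76 cytosolic ribosomal proteins 0 were lower and 7 higher, against 8.19% and 2.71% of all genes, with a median of 0.31 that became −0.02 after loess. Of 20 immediate early genes 0 changed 2-fold, with a median of 0.41 that became −0.01 with dim probes kept and −0.08 with all probes of a gene averaged.

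Epithelial and adhesion genes lay mostly above 0 on this scale. Over all genes 8.19% were lower and 2.71% higher, and no difference of these lists from those shares was tested. The median was 0.58 over 13 epithelial keratins, 0.39 over 13 S100 proteins and 0.30 over 18 integrin and laminin-332 genes, and on the HSC3 miR-504 array it was 0.69, 0.44 and 0.43. After loess these 3 medians in HSC3 after miR-489 were 0.29, 0.30 and 0.17. The keratin median was 0.0970 with all probes of a gene averaged. S100A11 was the only member of these 3 lists at least 2-fold higher (1.33), and none was lower. Of 22 squamous differentiation genes, ECM1 (1.48), the cornified envelope crosslinker TGM1 (1.18) and SPRR1B (1.09) were higher and A2ML1 was lower. Of 30 cadherin, vimentin and EMT genes 0 were lower and 3 higher, the junction proteins JUP (1.34), CTNNB1 (1.10) and CLDN1 (1.08), which had 1.43, 0.94 and 0.62 after miR-504. PKP1, a desmosome plaque protein, had −0.30 after miR-489 and 0.72 after miR-504 (limma adjusted p = 0.0370), and OVOL1, an epithelial transcription factor, −0.62 and 0.26 (limma adjusted p = 0.0415). Of 38 actin and myosin light chain genes 2 were lower, MARCKS and AHNAK, and 4 were higher, ACTB, tropomyosin TPM2 (1.58), AHNAK2 (1.07, named C14orf78) and ACTN4 (1.06). Of 21 NF2, ERM and Hippo genes NF2 was lower by its brightest probe, and RDX and FRMD6 (1.84) were higher. Of 20 matrix metalloproteinase and plasminogen activator genes 0 changed 2-fold. On the HSC3 miR-504 array, 4 of 28 squamous differentiation genes and 1 of 30 cadherin, vimentin and EMT genes were higher, with 0 lower. There, 4 of 38 actin genes were higher and 1 lower, and 2 of 21 NF2, ERM and Hippo genes were higher and 0 lower.

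Signalling lists outside ERK gave scattered members, against 8.19% of all genes lower and 2.71% higher. Of 15 Notch genes 3 were lower, against 8.19% of all genes, namely LFNG (−1.25), HEY1 (−1.08) and HEYL, whose Cy5 signal was not well above background. JAG1, a Notch ligand, had −0.61 after miR-489 and 0.57 after miR-504 (limma adjusted p = 0.0395), and the list median was −0.22. Of 24 TGF-beta genes TGFB1 was higher (1.12) and 0 were lower. Of 7 steroid receptor coactivators NCOA3 was lower (−1.62). Of 6 sodium pump subunits ATP1B3 was lower and FXYD5, a regulator of the pump, higher (1.21). Of 7 14-3-3 genes YWHAH and YWHAE (1.57) were higher, the median was 0.50, and YWHAQ had −0.94. Of 12 microRNA pathway genes TNRC6A, the Argonaute partner GW182, was higher (1.73). YWHAE, TGFB1, FXYD5 and TNRC6A were high after miR-504 too, at 1.53, 1.23, 1.40 and 1.54. Of 8 aryl hydrocarbon receptor genes CYP1B1 was lower, and of 6 oncofetal and 17 HLA class I genes 0 changed 2-fold.

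Of the 42 lists, 7 had medians at least 0.3 above that of all genes with the sign kept under every background and normalisation setting, and 0 had medians that far below. These 7 were mitosis, cholesterol synthesis, immediate early genes, 14-3-3 proteins, keratins, S100 proteins and integrins. Bright genes lay above 0 in general on this array, and the reference genes did too. GAPDH had 0.92 (SD 0.04 over 10 spots) after miR-489 and 0.86 after miR-504 in HSC3, and the brightest ACTB probe 1.10 and 1.02. Other ACTB probes had 0.09, 0.43 and 0.51. The part of brightness in the list medians was not tested.

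**Figure D5:**
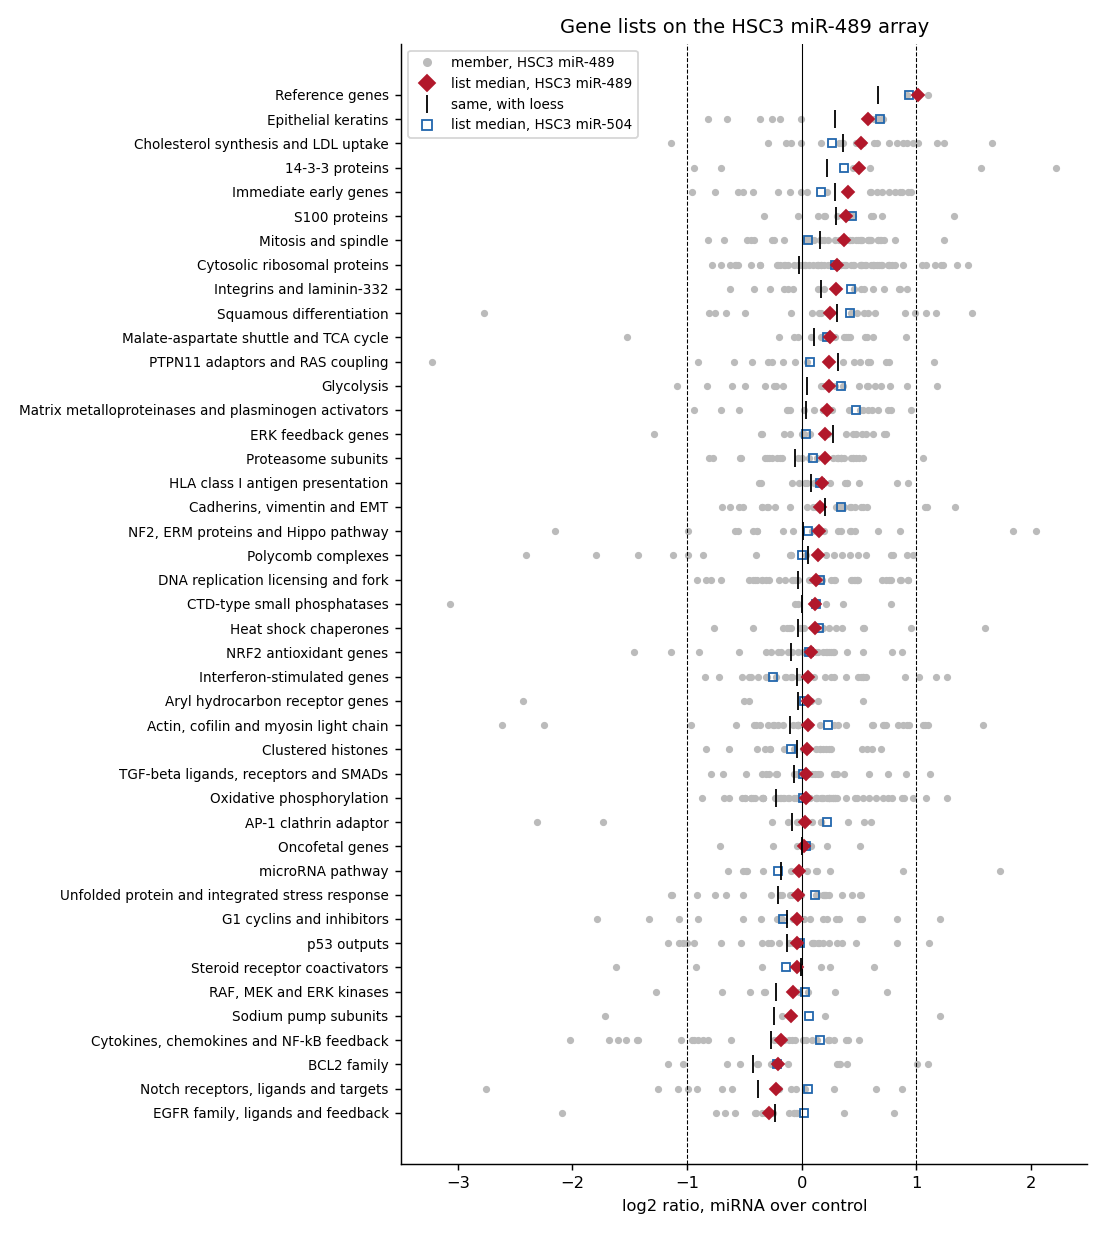
Log2 ratios of list members on the HSC3 miR-489 array (grey), with the list median, its value after loess and the median on the HSC3 miR-504 array. Dashed lines mark 2-fold changes. Cholesterol synthesis (0.52) and epithelial keratins (0.58) lie on the high side, and the EGFR family (−0.28) has the lowest median. The EGFR median was 0.02 on the HSC3 miR-504 array and −0.29 on the FaDu miR-504 array, which is not plotted.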

How the data were processed

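RNA of HSC3 and FaDu cells was hybridised to whole-genome Agilent arrays with 2 colours, 1 array per condition. The deposited files hold scanner intensity values per spot from Feature Extraction 9.5.3.1 and a log10 ratio that the authors' scanner software made after background subtraction and dye normalisation. The series value table equals that log10 ratio (largest difference 0). The scanner and software that the methods name differ from those in the file headers.

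From the deposited intensity columns, the median background was subtracted from the median signal of each channel. Outlier spots (126 on the HSC3 miR-489 array) were left out, and no spot was saturated. Log2 Cy5/Cy3 was then centred on the median of probes well above background in both channels, which removed 0.58. Spots of a probe were averaged, and a gene took its brightest probe over the 4 arrays. A gene was called lower only with Cy3, and higher only with Cy5, well above background. The software put 59.2% of probes in Cy3 and 62.6% in Cy5 well above background on this array. Precision is limited by the number of arrays. Names are as on the array, and 17561 matched a current RefSeq symbol.

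Values of 1 array had no test. The difference miR-489 minus miR-504 was tested over both lines with limma 3.58.1 in R 4.3.3 (lmFit, eBayes, Benjamini-Hochberg), with the cell line as a block as an alternative. Without the block, p-values set the difference against the spread between lines within a miRNA, moderated over probes by eBayes. With the block, they set it against the variation of the miRNA difference between lines, moderated likewise. On simulated data of this size the test found 96 of 100 probes changed 4-fold and 24 of 100 changed 2-fold, with 10 false calls. With the cell line as a block it found 80 and 0, with 5 false calls. The simulated noise was independent between arrays and held no line effect. It therefore cannot show how the test performs where arrays of 1 line vary together. Other steps used Python 3.11.15, pandas 2.3.3 and numpy 2.4.6. Named genes were the 12 largest falls and rises, the study's 53 listed genes, members of 42 gene lists that changed 2-fold (otherwise the largest of a list), the 8 largest differences each way from the HSC3 miR-504 and FaDu miR-489 arrays, and the 5 smallest limma p-values. The groups, lists and rules were chosen with earlier results of these data known. ANLN, ATF3, PKP1, OVOL1 and JAG1 were named from the limma results on list members. One gene that the rule names is not reported here. Alternatives varied the background correction (normexp with an offset of 50, none), the normalisation (loess, total signal), the filter on dim probes, the fold and the probe rule.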

Additional observations from a re-analysis of the deposited data

Results flagged for a closer look

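Among the genes with the largest difference between HSC3 and FaDu after miR-489, 10 had a log2 ratio of opposite sign in the 2 lines, from 1 array each, and the difference was not tested. Below 0 in HSC3 were CXCL1 (−2.02 against 0.08 in FaDu), KIAA0258 (−1.72 against 0.24), IL8 (−1.53 against 0.07), TWIST2 (−1.31 against 0.5), PDGFB (−0.85 against 1.09) and HAB1 (−0.69 against 0.91). Above 0 in HSC3 were TRIM22 (0.9 against −0.7 in FaDu), HOM-TES-103 (0.89 against −0.82), HCLS1 (0.23 against −1.67) and GRAMD1C (0.12 against −1.73). Some of these signs rest on values near 0, such as 0.08 and 0.07 for CXCL1 and IL8 in FaDu. The HSC3 value of GRAMD1C had a scanner software error of 0.23. It became −0.04 with no background subtraction and −0.05 with total signal.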

How the results depend on the processing

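The count of genes at least 2-fold lower (1464) was 449 with normexp, 484 with no background subtraction, 609 with normexp and loess, 12828 with no filter on dim probes and 395 among genes brighter than the median, and 3507 at 1.5-fold and 172 at 4-fold. The count of higher genes (507) was 208 with normexp and loess, 273 with total-signal scaling, 857 in the deposited log ratios and in the value table, 291 among brighter genes, and 2278 at 1.5-fold and 12 at 4-fold. Total-signal scaling moved the median of all genes from −0.03 to −0.21. The median of the 53 listed genes (−1.53) was −1.33 with normexp, −1.27 with no subtraction, −1.43 with normexp and loess, −1.71 with total signal, −1.65 in the deposited ratios and the value table, −1.64 with no filter, −1.64 among brighter genes and −1.37 with all probes averaged. It was −1.67 with the negative control spots subtracted, a setting chosen after seeing the data. The immediate early list turned from 0.41 to −0.0078 with no filter and −0.0777 with all probes averaged. By limma, 164 lower and 66 higher became 382 and 196 with the line as a block, 379 and 284 with normexp, 234 and 109 with loess, and 0 and 0 with no filter (2671 at an unadjusted p under 0.05). Leaving out 1 array gave 0 to 0. The cause of these changes was not tested, except that leaving out an array leaves fewer samples. Of 34 genes tracked under 9 settings, none changed sign, but 230 of their values moved by more than the error between spots and 76 did not. Other named genes did change sign in HSC3 after miR-489. With loess, VTN went from −0.25 to 0.28 and PRSS23 from 0.14 to −0.05, and with total signal GRAMD1C went from 0.12 to −0.05. With normexp, C15orf45 went from −5.16 to −3.32, ALS2CR13 from −3.42 to −1.93 and OBSL1 from −2.64 to −1.32. The brightest PTPN11 probe stayed between −3.41 and −3.04 under all 9. Its dim probes went from −1.66 to −0.75 and from −1.22 to −0.36 with normexp and loess, and the probe with 10 spots from −1.38 to −1.49. With normexp and loess, RBMS3 went from −2.54 to −0.94 and TWIST2 from −1.31 to −0.09.

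The planned seed-match comparison was not run, as transcript sequences were not used here. One array per condition gives no biological error. Dim genes carry the largest dependence on the background, and 250 of the lower genes are bounds. Differences between probes of a gene exceed the error between spots.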
